A study of Mus musculus with 24 samples.

Results

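Peripheral myelin is the membrane sheath that Schwann cells wrap around the axons of motor and sensory nerves, and 7 of its genes were followed through injured mouse quadriceps. They were chosen by symbol, as the rows named Mbp, Pmp22, Prx, Mag, Sox10, Ngfr and S100b, and all 7 were among the 14159 genes with a symbol in the expression matrix. The muscle came from young adult female C57BL/6J (B6) mice and from MRL/MpJ (MRL) mice, an autoimmune-prone strain known for closing ear punches without a scar. In the injured groups a block of the quadriceps was cut out (volumetric muscle loss), the gap was filled with saline as the control injury, with ECM (a decellularized matrix of pig small intestine) or with PE (polyethylene powder), and the muscle was collected on day 21. Uninjured muscle of each strain completed 8 groups of 3 libraries, 24 in all. Each library was made from poly(A) RNA of a whole quadriceps, so it held the wound, the implant and the surrounding muscle together, and no group carried a transgene or an altered allele.

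In a myelinating Schwann cell the membrane is wound around a single axon and compacted by adhesive and basic proteins. Mbp encodes myelin basic protein, which holds the cytoplasmic faces of the sheath together, Pmp22 encodes a membrane protein of compact myelin whose dosage underlies the commonest inherited neuropathies, and Prx encodes periaxin, which links the Schwann cell membrane to the basal lamina through dystroglycan. Mag encodes the myelin-associated glycoprotein of the innermost wrap next to the axon. Sox10 is the transcription factor of the Schwann cell lineage and acts with Egr2 on myelin genes, while Ngfr encodes the p75 neurotrophin receptor, which is known to be high in immature and denervated Schwann cells and low in myelinating ones. S100b encodes a calcium-binding protein used as a Schwann cell marker. When an axon is cut, the Schwann cells beyond the cut are known to shut down myelin genes, to turn on repair genes such as Gdnf, and to myelinate again once the axon has grown back. None of these genes is made in 1 cell type alone: Mbp and Mag are also oligodendrocyte genes, Sox10 is also made in melanocytes and in the epithelium of several glands, and S100b is also made in adipocytes.

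In the GRCm39 annotation, all 7 genes were protein-coding. Prx lay at chr7:27196813-27219639 on the plus strand and Mag on the same chromosome at chr7:30598464-30614474 on the minus strand. Pmp22 was at chr11:63019718-63050600 (plus) and Ngfr at chr11:95459638-95478561 (minus). S100b was at chr10:76085090-76097159 (plus) and Sox10 at chr15:79039108-79049469 (minus). The RefSeq promoter table (GRCm38.p6) held 10 start sites for 5 of the 7 genes, each with 250 bases before the start. Stretches of these windows are shown for Prx, the gene with the largest fall among the 7, beside Mag and Pmp22, sheath genes that did not pass the test. Each window was found once in GRCm39 and is printed up to the base before the first annotated exon inside it. The Mag and Pmp22 stretches end where the annotated gene begins, while the Prx stretch lies within the gene, in an intron of a transcript that starts further upstream. In the sequences, capitals mark the EGR motif GCGTGGG, which was searched on both strands together with the SOX motif ACAAAG.
Prx, chr7:27198499-27198740, plus strand: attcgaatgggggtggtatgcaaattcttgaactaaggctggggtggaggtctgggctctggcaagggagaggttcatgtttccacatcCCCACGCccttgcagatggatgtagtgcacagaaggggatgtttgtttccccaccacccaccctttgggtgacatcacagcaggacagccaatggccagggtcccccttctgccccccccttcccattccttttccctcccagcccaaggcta
Mag, chr7:30614475-30614597, minus strand: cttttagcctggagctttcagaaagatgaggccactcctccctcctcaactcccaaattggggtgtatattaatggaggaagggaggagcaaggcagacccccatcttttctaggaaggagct
Pmp22, chr11:63019558-63019717, plus strand: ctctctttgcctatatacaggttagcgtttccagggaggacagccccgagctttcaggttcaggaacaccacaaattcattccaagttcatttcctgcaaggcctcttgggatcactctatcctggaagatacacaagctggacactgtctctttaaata
The Prx stretch held the EGR motif, on the opposite strand, and the printed stretches of Mag and Pmp22 held neither motif. Among all 32851 promoters of the table, 4.30% held the EGR motif and 16.5% the SOX motif in their 250 bases. A single member, Mag, had a SOX motif in its full windows, within an annotated exon that is not printed. A match gives only the letters of the window and does not show binding.

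The expression values were log2 CPM, the log2 of each gene's reads scaled to a common library total. On this scale a count of 0 stands at -3.65 and 3 counts correspond to 0.119 CPM. The mean effective library size implied by that lowest value was 25149678 reads, and the size of each library was not analysed here. The 8 muscle fibre genes checked, Ckm and Acta1 among them, were in the matrix and summed to between 34250 and 222635 CPM per library. Of 6 further oligodendrocyte genes (Mog and Olig2 among them) none was in the matrix, and of 6 melanocyte genes only Mitf was. Some libraries stood apart from their own group. Among uninjured B6 muscles, replicate 2 was the highest of all 24 libraries for 4 of the 7 genes, and its sum over 10 adipocyte genes was 13207 CPM against 3843 and 5669 CPM in replicates 1 and 3. In the MRL PE group, replicate 2 had 4828 CPM over 8 macrophage genes where replicates 1 and 3 had 221 and 228 CPM, and its fibre genes were the lowest of any library.

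Per kilobase of transcript, Pmp22 had the highest median level over the 24 libraries, 13.0 CPM per kb, followed by Mbp with 7.31 CPM per kb. The other members were lower, with medians of 1.46 CPM per kb for Sox10, 0.943 for Ngfr, 0.709 for S100b, 0.688 for Prx and 0.477 for Mag. Pmp22 was above Mbp in 21 libraries and Mbp was above Sox10 in all 24, whereas S100b was above Prx in only 13, so the order of those lower neighbours did not exceed their spread. Every member varied more within groups than most genes: the within-group SD ran from 0.51 (Pmp22) to 1.13 (Mag) on the log2 scale, against a median of 0.40 over all genes. When the 8 groups were ordered by mean level, the ranges of neighbouring groups overlapped in all 49 neighbouring pairs.

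**Figure D1:**
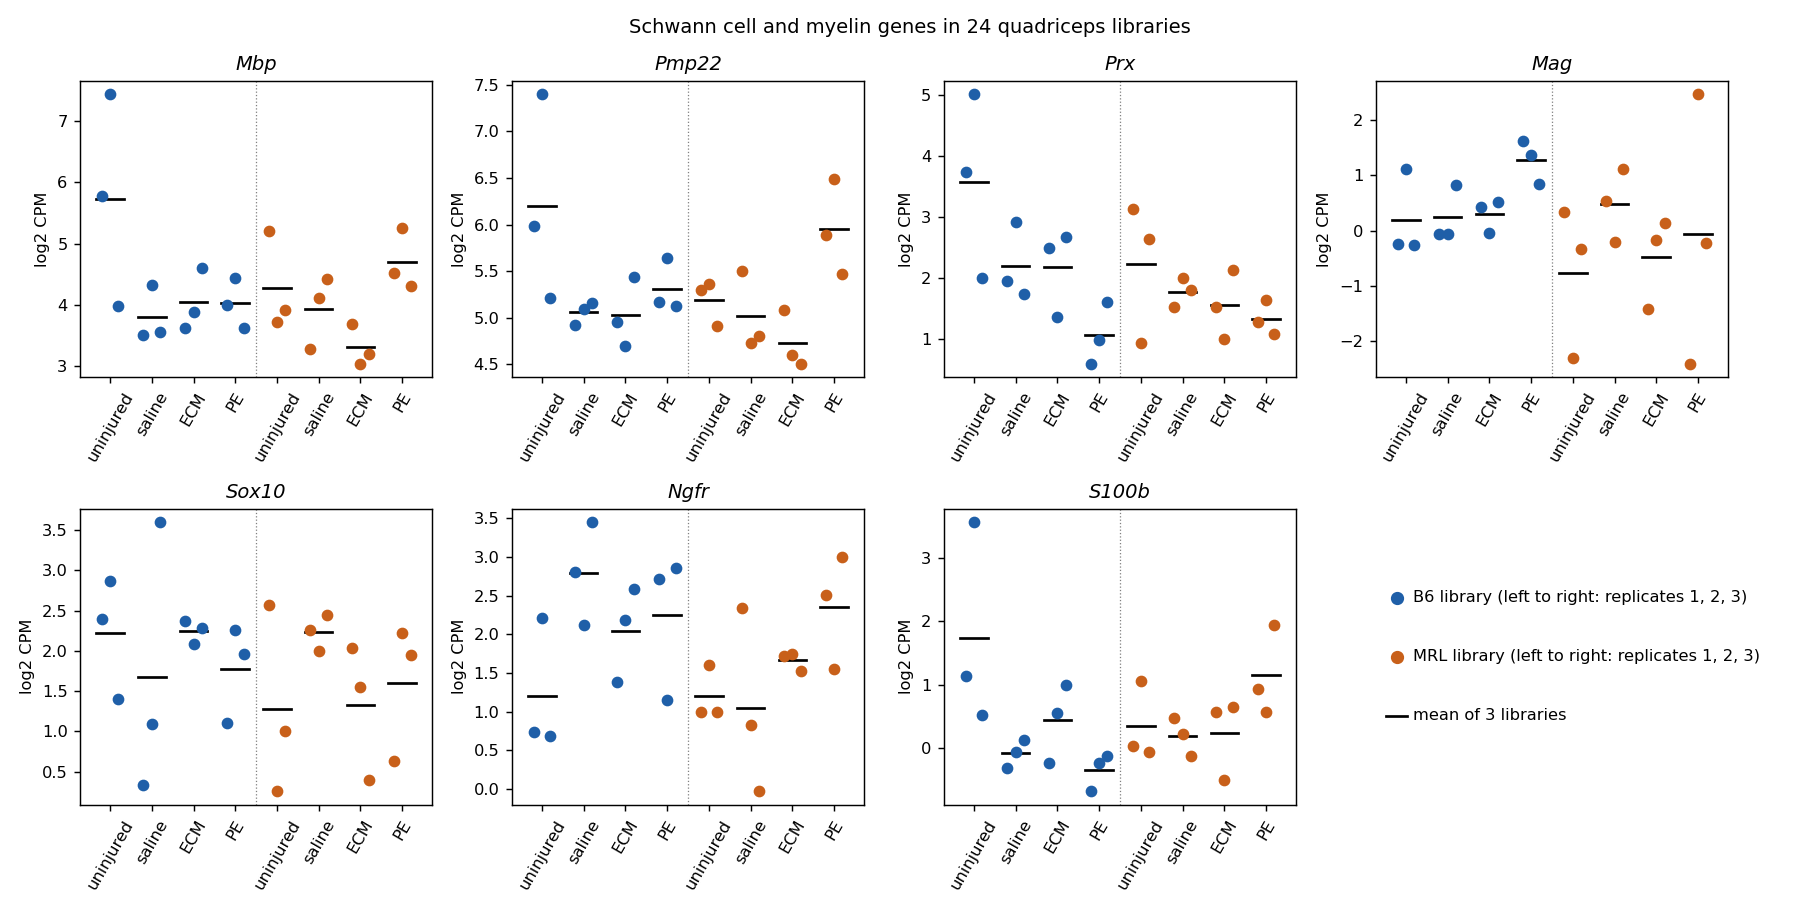
Level of each of the 7 genes (log2 CPM, vertical axis) in every library, by group, with B6 in blue, MRL in orange and the mean of 3 libraries as a black line; each panel has its own scale. The 3 uninjured B6 libraries spread widely for Mbp (3.97 to 7.44) and S100b (0.51 to 3.56), and replicate 2 is the highest.

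Mbp was lower after PE in B6 muscle, where its 3 uninjured libraries spread the most of any member. In the 3 uninjured B6 libraries, Mbp was at 5.77, 7.44 and 3.97 log2 CPM. It stood at 3.51, 4.32 and 3.55 after saline, at 3.62, 3.89 and 4.60 after ECM, and at 4.0, 4.44 and 3.62 after PE. In each case replicate 3 of the uninjured group lay inside the injured range, while replicates 1 and 2 were above every injured library. In MRL, Mbp was at 5.21, 3.71 and 3.91 without injury and at 4.51, 5.25 and 4.31 after PE, with overlapping ranges. After ECM, MRL libraries read 3.68, 3.03 and 3.20, the lowest group mean of the 8. PE lowered Mbp in B6 by a log2 fold change of -1.71 (SE 0.60, adjusted p = 0.0442 by limma over all genes), 3.27-fold. In a whole muscle, fewer Schwann cells and less RNA per Schwann cell cannot be told apart. Leaving out replicate 2 of the uninjured B6 libraries brought this change to -0.85 (adjusted p = 0.232), and the call held in only 1 of the 6 refits that each left out 1 library, the one without uninjured replicate 3. Over both strains and all 3 injuries the Mbp difference was -1.04 (SE 0.35, adjusted p = 0.0580). It was -0.61 (adjusted p = 0.151) without uninjured B6 replicate 2, and it passed without uninjured B6 replicate 3 (adjusted p = 0.0390), without B6 saline replicate 2 (adjusted p = 0.0382) or without MRL PE replicate 2 (adjusted p = 0.0429).

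Pmp22, the most abundant member per kilobase, had the smallest spread within groups, and its values differed most between PE and ECM in MRL. The uninjured B6 libraries held 5.98, 7.40 and 5.21 log2 CPM and the saline ones 4.92, 5.09 and 5.15, each below all of them, though 5.15 and 5.21 were close. In MRL muscle, PE gave 5.88, 6.49 and 5.47, above each of the uninjured (5.30, 5.36 and 4.91) and ECM libraries (5.08, 4.59 and 4.51). The ECM and uninjured ranges overlapped. The MRL difference of PE from ECM was 1.22 (SE 0.39, adjusted p = 0.0733), and over both strains it was 0.75 (SE 0.27, adjusted p = 0.0515), neither past the threshold of 0.05. Without MRL PE replicate 3 they passed, at 1.46 (adjusted p = 0.0372) and 0.87 (adjusted p = 0.0288), and the latter also without B6 ECM replicate 3 (adjusted p = 0.0398). In B6, the difference of PE from uninjured was -0.89 (SE 0.39, adjusted p = 0.0961). It was -0.29 (adjusted p = 0.522) without uninjured replicate 2 and passed without uninjured replicate 3 (adjusted p = 0.0260). For this gene the test of any difference among the 8 groups gave an adjusted p of 0.0567, the lowest of the 7 members, and 0 members passed it where 26.0% of all genes did.

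Prx showed the largest change, and in every setting of strain and implant its mean was lower after injury. It read 3.74, 5.02 and 1.99 log2 CPM in uninjured B6 muscle and 0.59, 0.98 and 1.61 after PE. All PE libraries lay below all uninjured ones, and the log2 fold change was -2.52 (SE 0.62, adjusted p = 0.0105), 5.75-fold lower. Without uninjured replicate 2 it was -1.81 (adjusted p = 0.0478), and the call was lost only without PE replicate 2 (adjusted p = 0.0568). In MRL, uninjured libraries held 3.13, 0.92 and 2.63 and PE libraries 1.27, 1.63 and 1.08, so that replicate 2 of the uninjured group lay below all PE libraries. The MRL change of -0.90 (SE 0.62) had an adjusted p of 0.296. Over both strains and all 3 injuries Prx fell by 1.23 on the log2 scale (SE 0.36, adjusted p = 0.0434). That call was near the threshold and was kept in 9 of 24 refits that each left out 1 library, with adjusted p values between 0.0247 and 0.115. Without uninjured B6 replicate 2 the difference was -0.87 (adjusted p = 0.0998).

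Mag was the lowest member and did not follow the other sheath genes. Uninjured B6 libraries held -0.25, 1.12 and -0.27 log2 CPM and B6 PE libraries 1.62, 1.37 and 0.84, with replicate 2 of the uninjured group inside the PE range. The difference was 1.08 (SE 0.87, adjusted p = 0.356), with the mean after PE the higher one. MRL PE libraries spread from -2.42 in replicate 1, which is under 3 counts, to 2.47 in replicate 2, the library with the high macrophage genes, and replicate 3 was at -0.23. Both the lowest and the highest Mag value of the 24 libraries thus came from a single group, and no comparison of Mag passed the threshold. Without that replicate 2, the strain difference of Mag averaged over treatments was -1.03 (adjusted p = 0.0274).

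Sox10, the lineage factor, showed no change in level with injury, strain or implant that passed the threshold. Uninjured B6 muscle read 2.40, 2.86 and 1.40 log2 CPM, and saline-treated B6 muscle 0.34, 1.09 and 3.60, which holds both extremes of the B6 libraries. In MRL the uninjured libraries were at 2.57, 0.26 and 1.01, and the saline ones at 2.26, 2.00 and 2.45. The B6 ECM libraries held 2.37, 2.08 and 2.29. Each MRL ECM library, at 2.04, 1.55 and 0.40, was below all of these, though 2.04 and 2.08 were close. The change with injury over both strains was 0.06 (95% interval -0.79 to 0.91, adjusted p = 0.925), an interval that leaves room for a change of nearly 1 log2 unit in either direction, and its sign turned to -0.28 with the sequencing index in the model.

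Ngfr had higher means after each injury in B6 and after ECM and PE in MRL, without passing the threshold. The B6 means were 1.21 log2 CPM uninjured, 2.79 after saline, 2.05 after ECM and 2.25 after PE. In MRL the means were 1.20 uninjured, 1.04 after saline, 1.66 after ECM and 2.35 after PE. By library, Ngfr was at 0.73, 2.21 and 0.68 log2 CPM in uninjured B6 muscle and at 2.81, 2.12 and 3.45 after saline. Only uninjured replicate 2 reached the range of the saline libraries. The B6 difference was 1.58 (SE 0.58, adjusted p = 0.314), 3.00-fold higher after saline. In MRL the saline libraries read 2.34, 0.82 and -0.03, around the uninjured 1.00, 1.60 and 0.99, and the saline groups of the strains differed by -1.75 (SE 0.58, adjusted p = 0.159, MRL minus B6). Without MRL saline replicate 1 this was -2.40 and passed (adjusted p = 0.0284). Averaged over strains and injuries, Ngfr was 0.82 higher after injury (SE 0.34, adjusted p = 0.0988), with a 95% interval from 0.12 to 1.53.

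S100b fell after PE in B6, and its mean after PE in MRL was above the uninjured mean. B6 PE libraries were at -0.68, -0.24 and -0.13 log2 CPM, below all uninjured B6 libraries at 1.13, 3.56 and 0.51. MRL PE libraries were at 0.92, 0.57 and 1.95, above all B6 PE libraries, and overlapped the uninjured MRL ones at 0.03, 1.06 and -0.07. The B6 change of -2.08 (SE 0.60, adjusted p = 0.0196) passed the threshold and the MRL difference of 0.81 (SE 0.60, adjusted p = 0.325) did not. Their difference, tested as the interaction of strain and PE, was 2.89 (SE 0.84, unadjusted p = 0.00273, adjusted p = 0.297) and was not called. Without uninjured B6 replicate 2 the B6 change was -1.17 (adjusted p = 0.0923) and the interaction 1.98, and without MRL PE replicate 2 the interaction was 3.18 and passed (adjusted p = 0.0290). The call of the B6 change was also lost without PE replicate 1 or without PE replicate 2.

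**Figure D2:**
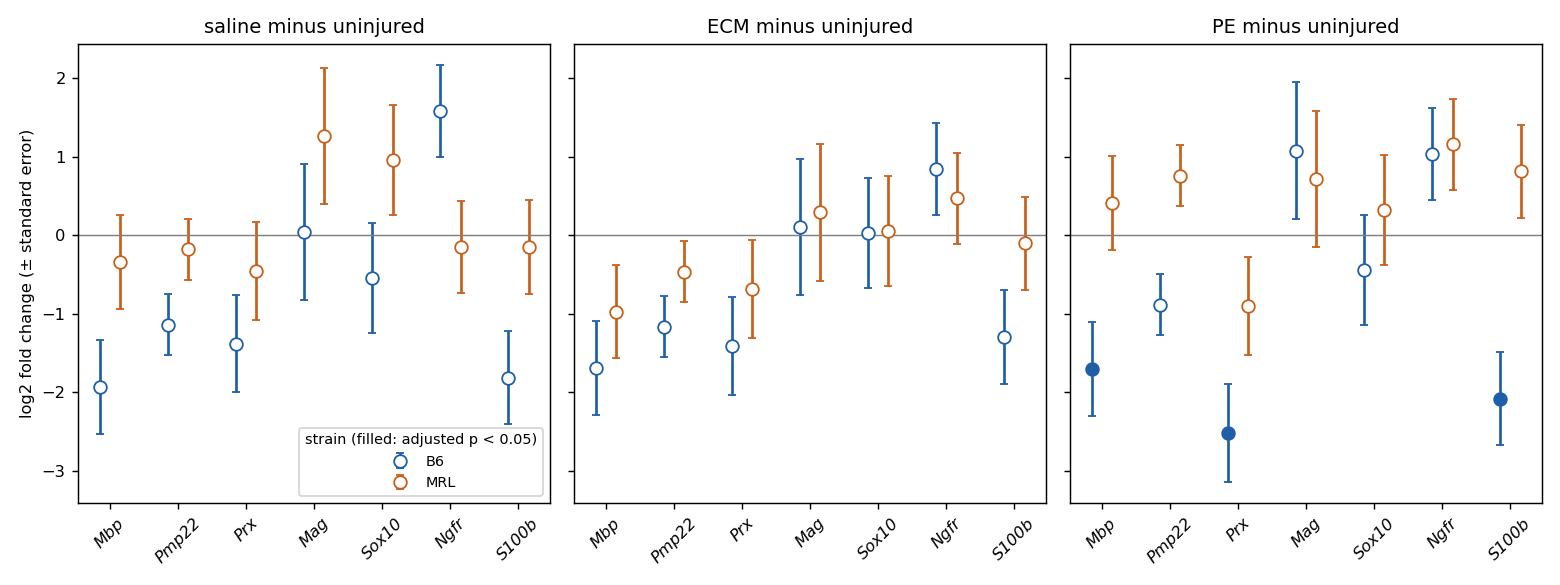
Log2 fold change of each gene against uninjured muscle of the same strain after saline, ECM and PE (B6 blue, MRL orange; bars are standard errors; filled points have an adjusted p under 0.05). Only Mbp, Prx and S100b in B6 after PE are filled, and the B6 points for Mbp, Pmp22, Prx and S100b lie below 0 in all 3 panels.

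PE in B6 changed 3 of the 7 members (Mbp, Prx and S100b, all lower) where 24.8% of the 14159 genes were called, 1422 of them lower. The PE and uninjured libraries did not overlap for 2 members, Prx and S100b, and for 51.1% of all genes. In the average over strains and injuries 1 of 7 members, Prx, was called, against 9.61% of all genes and 3.31% called lower. After saline or ECM in B6, Mbp, Pmp22, Prx and S100b were each lower by between 1.14 and 1.93 on the log2 scale, with adjusted p values between 0.159 and 0.386. Without uninjured B6 replicate 2 these 8 differences lay between -1.08 (Mbp after saline) and -0.39 (S100b after ECM). No member was called there, but saline called 0 genes by limma (12.4% of genes had an unadjusted p under 0.05, and 5 of 7 members) and ECM called 0.424%. Saline and uninjured B6 libraries did not overlap for 2 members, Pmp22 and S100b, against 15.9% of genes. No member was called in MRL for saline, ECM or PE against uninjured, where 0, 0.0141 and 9.73% of genes were called. Only Pmp22 had PE libraries apart from the uninjured ones in MRL, against 38.8% of genes. Only Mbp had MRL ECM libraries apart, below the uninjured ones (3.68 against 3.71 at the nearest), where the share of all genes is not given. Among the 7 members the median log2 difference from uninjured was -1.14, -1.17 and -0.89 in B6 and -0.15, -0.11 and 0.72 in MRL, for saline, ECM and PE in that order, while the median over all genes stayed between -0.02 and 0.07. These 3 B6 comparisons share their uninjured libraries, as do those of MRL.

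All 7 members had a lower mean in uninjured MRL than in uninjured B6 muscle, by a median of 1.00 on the log2 scale. For Ngfr the means were close, 1.20 against 1.21 log2 CPM. The ranges overlapped for each of the 7 members, while they did not for 21.8% of genes. Unadjusted p values were under 0.05 for 4 members (10.9% of all genes), namely Mbp, Pmp22, Prx and S100b, and 0 members were called (2.60% of all genes). Without B6 replicate 2 the Mbp difference of -1.45 shrank to -0.60, and those of Pmp22, Prx and S100b were -0.40, -0.64 and -0.48. Without B6 replicate 3 the Mbp difference was -2.33 and passed (adjusted p = 0.0177), as did that of Pmp22. No member was called between the strains after saline, ECM or PE either, where 2.51, 2.66 and 3.35% of genes were called. S100b alone lay apart in the PE groups (17.5% of genes). Sox10 alone lay apart in the ECM groups, where the share of all genes is not given here. Averaged over the 4 treatments, the strain difference ran from -0.71 (Mag) to 0.04 (S100b) and called no member (15.2% of all genes).

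Among implants, ECM against saline called no member (0.0283% of genes), PE against saline none (24.2%) and PE against ECM none (24.9%), each over both strains. Within B6 the same comparisons called 0 members, with 0.0283, 5.97 and 0.226% of genes called. There Prx was lower (1.61 against 1.74 at the nearest) and Mag higher (0.84 against 0.83) in all PE libraries than in all saline ones. Mag after PE was also above all B6 ECM libraries. Within MRL the comparisons called 0 members too, with 0.00706, 0 and 0% of genes called. Mbp and Pmp22 had MRL PE libraries above all ECM ones, which do not overlap for 29.8% of genes. S100b had MRL PE libraries above all saline ones (0.57 against 0.47 at the nearest). Except for PE against ECM in MRL, the share of all genes lying apart is not given here. In the 6 tests of whether the strains responded differently no member passed, and 0 to 0.0212% of genes did (0.00706% for ECM injury). For PE injury, with 0.0212% of genes called, an unadjusted p under 0.05 was reached by 3 members, Mbp, Pmp22 and S100b (11.7% of genes). Their B6 and MRL differences had opposite signs, with Pmp22 at -0.89 in B6 and 0.75 in MRL.

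Some further genes of the sheath fell with injury, by counts that depended on single libraries. Of 15 further myelin genes listed, 12 were in the matrix. Over both strains 4 fell with injury, 0 rose and 8 did not pass, beside 9.61% of all genes called and 3.31% called lower. The 4 were Ugt8a, which makes the myelin lipid galactosylceramide, Mal, a raft protein of the sheath, Cadm4, which holds the sheath to the axon, and Drp2, the partner of periaxin. Ugt8a had a log2 fold change of -1.69 (SE 0.52, adjusted p = 0.0475) and Mal one of -1.61 (SE 0.43, adjusted p = 0.0351). The median over the 12 genes was -0.81, beside 0.01 for all genes.

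Mal in uninjured B6 muscle was at 2.32, 4.32 and 1.07 log2 CPM and after PE at -1.90, -0.58 and -0.83. Every PE library lay below every uninjured one, and the change was -3.68 (SE 0.75, adjusted p = 0.00421). In B6 after PE, 6 of the 12 genes fell and none rose, where 24.8% of all genes were called, 1422 of them lower. Ugt8a was at -3.24 (SE 0.90), Cldn19, a claudin of Schwann cell junctions, at -3.03 (SE 1.02), Cadm4 at -1.80 (SE 0.53) and Drp2 at -1.64 (SE 0.39). MRL PE called 0 of the 12, with a median of -0.55, and Mal was at 0.78, 0.50 and -0.24 after PE against 2.27, -0.37 and 0.66 uninjured, where the ranges overlapped. The test of a strain difference in the PE response called 0 of these genes as well.

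The summed level of the 12 sheath genes was 68.6, 149 and 33.9 CPM in the uninjured B6 libraries and 59.8, 28.2 and 37.9 CPM in the uninjured MRL libraries. It lay between 27.9 and 53.5 CPM in the 18 injured libraries, so replicate 3 of uninjured B6 and replicates 2 and 3 of uninjured MRL were within the injured range. Without uninjured B6 replicate 2, the average injury change called 0 of the 12 genes (median -0.53) and the B6 PE change called 2, and those counts were also 0 and 2 without uninjured B6 replicate 1. With the sequencing index in the model those counts were 0 and 3, and with the replicate number as a block they were 1 and 4. Scaling all libraries to equal totals gave 1 and 4 as well. The average injury count was also 0 without uninjured MRL replicate 1 or replicate 3, and it ran from 0 to 6 over all refits without 1 library. The B6 PE count was 1 without PE replicate 2. Uninjured B6 replicate 2 was also the library with the most adipocyte RNA of its group, whose part in these values was not tested. After PE in B6, 5 of 6 endothelial genes fell too, with a median of -0.92 over the 6, beside 24.8% of all genes called. In MRL 0 of the 6 were called, beside 9.73% of all genes. The endothelial count was 1 with equal totals or without PE replicate 2, and its part in the sheath values was not tested.

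**Figure D3:**
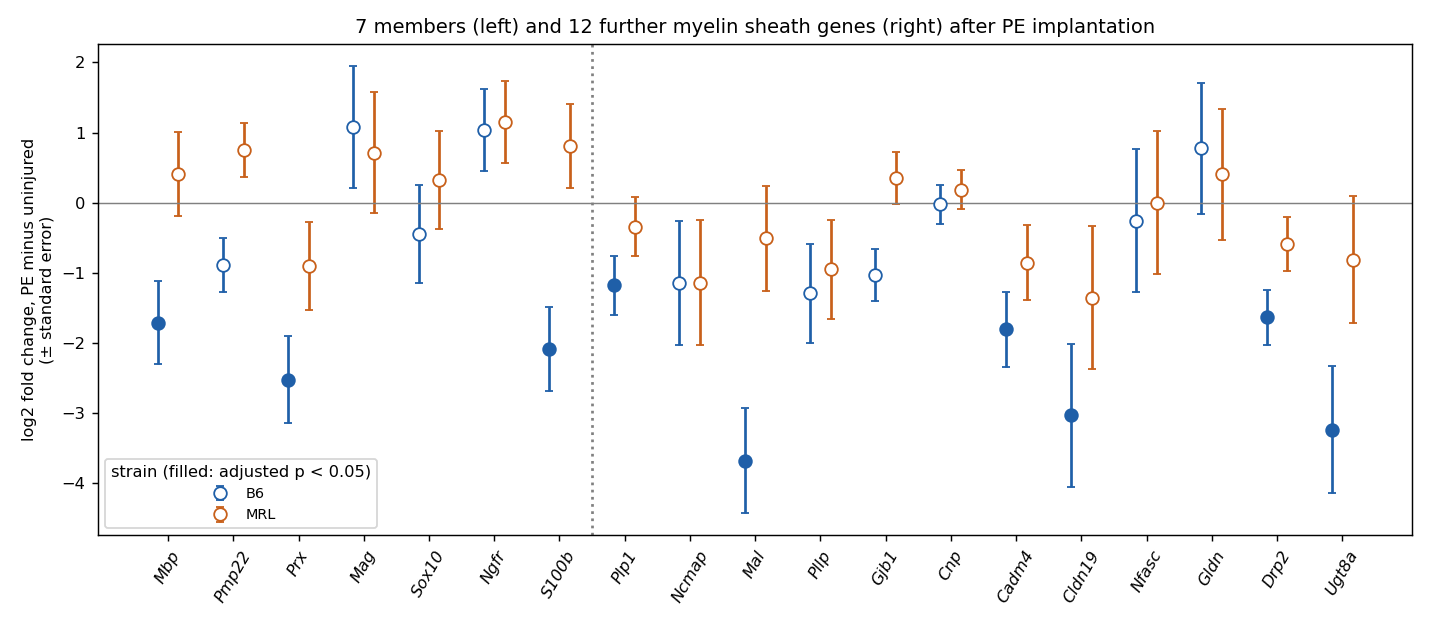
Log2 fold change after PE against uninjured muscle of the same strain for the 7 members (left of the dotted line) and 12 further myelin sheath genes (right), with standard errors and filled points for an adjusted p under 0.05. The B6 points for Mal (-3.68) and Ugt8a (-3.24) are the lowest, and no MRL point is filled.

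The genes that regulate Schwann cells did not move as 1 group. Of 15 measured, Erbb2, a subunit of the neuregulin receptor, was the only one called over both strains (0.78 higher, SE 0.24, adjusted p = 0.0488). After PE in B6, 4 of the 15 rose and 3 fell, beside 24.8% of all genes called. Egr2, the zinc finger factor that drives myelination and that macrophages also make, rose by 4.43 (SE 0.93, adjusted p = 0.00480), Nab2, its cofactor, by 1.63 (SE 0.44) and Pou3f1, a factor of promyelinating Schwann cells, by 2.08 (SE 0.62). Dhh, the hedgehog ligand of Schwann cells, fell by 1.51 (SE 0.47) and Cdh19, a cadherin of the lineage, by 1.43 (SE 0.43). Egr2 was at 5.13, 6.13 and 4.35 log2 CPM in B6 PE libraries and at 6.34 in replicate 2 of MRL PE, but at 1.13 and 1.92 in the other MRL PE libraries. Those 4 libraries with high Egr2 were also the 4 with the highest macrophage sums, 2867, 5346, 1501 and 4828 CPM, where every other library had at most 823 CPM. What part the macrophage genes had in the Egr2 change was not tested.

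Some repair genes and most denervation genes rose with injury. Of 13 repair Schwann cell genes measured, 3 rose with injury over both strains and none fell, where 9.61% of all 14159 genes were called, 893 of them higher. That count of 3 was 1 when uninjured B6 replicate 1, 2 or 3 or uninjured MRL replicate 2 was left out, and 0 without uninjured MRL replicate 3. Gdnf, a survival factor for motor neurons, rose by 2.53 (SE 0.48, adjusted p = 0.0130), Ncam1, an adhesion molecule of repair Schwann cells and of denervated fibres, by 2.10 (SE 0.49, adjusted p = 0.0249) and Sox4 by 0.90 (SE 0.23, adjusted p = 0.0301). Gdnf was at -0.44, -0.78 and -0.93 log2 CPM in uninjured B6 and at 3.67, -0.00 and 3.71 after saline, with no overlap. MRL saline gave 2.18, -0.18 and -0.03, and the strain difference of Gdnf over the 4 treatments was -1.59 (SE 0.41, adjusted p = 0.0135, lower in MRL).

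Of 8 denervation genes of the muscle fibre, a list that shares Ncam1 with the repair list, 7 rose with injury. Among them Chrng, the fetal acetylcholine receptor subunit, rose by 4.10 (SE 0.77, adjusted p = 0.0130). The summed level of the 8 in B6 saline was lowest in replicate 2 (87.5 CPM, against 748 and 924 CPM), which was also the replicate with the lowest Gdnf and the highest Mal (1.36 log2 CPM) of that group. Among 10 neurotrophin genes, Ntrk3, the receptor of neurotrophin 3, fell by 2.39 (SE 0.71, adjusted p = 0.0453) and Ret, the receptor kinase for Gdnf, by 0.57 (SE 0.15, adjusted p = 0.0342), and none rose. Only 3 of 12 axon genes were in the matrix, and of these Uchl1, a ubiquitin hydrolase of neurons, rose with injury by 1.40 (SE 0.40, adjusted p = 0.0414) and had a log2 fold change of -2.05 in MRL against B6 (SE 0.35, adjusted p = 0.000383). All 8 macrophage genes rose with injury, and of 10 adipocyte genes none was called. After PE, 3 adipocyte genes fell in B6 (24.8% of all genes called) and none was called in MRL (9.73%). Of the other lists, 1 of 10 perineurial, 1 of 8 fibroblast and 2 of 6 T cell genes rose with injury, counts to be read beside the 9.61% of all genes called, and 0 of 6 endothelial, 0 of 6 pericyte and 0 of 8 muscle fibre genes were called.

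Across the 24 libraries some pairs among Mbp, Pmp22, Prx and S100b varied together and others did not. Of the 21 pairs of members, Mbp and Pmp22 had the highest correlation of log2 CPM (Pearson r = 0.84, permutation p = 4.0e-05, adjusted 0.000840; Spearman rho = 0.65, permutation p = 0.000850, adjusted 0.0178). Without the 2 libraries farthest from the median of Mbp, uninjured B6 replicates 1 and 2, r was 0.63, and it was 0.72 on deviations from group means. Mbp and Prx gave r = 0.71 (permutation p = 0.000590, adjusted 0.00619) but rho = 0.36 (permutation p = 0.0881, adjusted 0.264), and r was 0.27 without those libraries, so this relation rested on them. Pmp22 and S100b gave r = 0.72 (permutation p = 0.000910, adjusted 0.00637) with rho = 0.49 (permutation p = 0.0150, adjusted 0.105) and 0.46 without the 2 farthest libraries. Mbp and S100b gave r = 0.68 (permutation p = 0.00332, adjusted 0.0174) with rho = 0.41 (permutation p = 0.0448, adjusted 0.235) and 0.20 without uninjured B6 replicates 1 and 2, so it rested on them as well. Pmp22 and Prx did not pass (r = 0.47, permutation p = 0.0260, adjusted 0.0779, rho = 0.01). Nor did Prx and S100b (r = 0.51, permutation p = 0.0198, adjusted 0.0693, rho = 0.22), with r at -0.10 without the 2 farthest libraries. Mag and Sox10 gave r = 0.52 (permutation p = 0.00983, adjusted 0.0413), rho = 0.52 (permutation p = 0.00963, adjusted 0.101) and 0.46 without the 2 farthest. No pair with Ngfr passed, with r from -0.22 to 0.14, though on deviations from group means Ngfr and S100b gave r = 0.60. On such deviations r was 0.76 for Mbp and Prx, 0.61 for Pmp22 and S100b, 0.49 for Mbp and S100b and 0.50 for Mag and Sox10. The r on deviations were not tested. The permutations shuffled all 24 libraries without regard to group, so differences between group means enter their p-values.

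The genes most like each member, by Pearson r over the 24 libraries, differed in kind. Among the genes most like Prx were other sheath genes, Ugt8a (r = 0.90) and Mal (r = 0.90), and both stayed at 0.83 without uninjured B6 replicate 2. Its median r with the 12 sheath genes was 0.68. For Mbp the nearest genes were Sptbn5, Aatk and Gsto1 (r = 0.87, 0.85 and 0.83), for Pmp22 Ahcyl1, Secisbp2l and Prkci (0.85, 0.84 and 0.83), and for the mean of the 4 sheath members Sptbn5 (0.88) and Ugt8a (0.82). Mag was nearest to Dcaf15, Rasal1 and Kif19a (0.86, 0.81 and 0.81) and Ngfr to Rras, Palm2 and Creld1 (0.81, 0.81 and 0.80). S100b was nearest to Letmd1, Tspan18 and Rbpms2 (0.89, 0.88 and 0.86), and its median r with 10 adipocyte genes, 0.67, was above its median r with the 12 sheath genes, 0.39. Pmp22 also had a higher median r with the adipocyte genes (0.50) than with the sheath genes (0.39). Mbp (0.34 and 0.57) and Prx (0.17 and 0.68) had the higher median r with the sheath genes. With the log2 sums of the 2 lists, r for Pmp22 took the other order, 0.47 with adipocyte and 0.57 with sheath genes. Without uninjured B6 replicate 2, r with the adipocyte and sheath sums was 0.22 and 0.07 for Pmp22 and 0.64 and -0.03 for S100b. It was -0.07 and 0.50 for Mbp and -0.21 and 0.72 for Prx. For Mag the median r was 0.55 with 8 macrophage genes and 0.12 with the sheath genes. The nearest genes were picked as the most alike of the matrix, so the values are a description.

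The genes most like Sox10 were gland genes. Its nearest genes were Aqp5, a water channel of secretory epithelium (r = 0.87), Foxi1, a factor of ion-transporting epithelium (r = 0.86), and Lalba, the milk protein alpha-lactalbumin (r = 0.85), while its median r with the 12 sheath genes was 0.29. A list of gland genes was drawn up after these values were seen, and its 8 measured genes, Lalba among them, had a median r of 0.58 with Sox10. Lalba was picked for its high r with Sox10. The median and the split of libraries by Lalba that follows therefore describe that likeness and do not test it. In 6 libraries Lalba was under 3 counts, and Sox10 in them was between 0.26 and 1.09 log2 CPM. In the other 18 it was between 1.10 and 3.60. The 6 libraries were B6 saline replicates 1 and 2, MRL ECM replicate 3, MRL PE replicate 1 and MRL uninjured replicates 2 and 3, spread over both strains and 4 treatments. Within the 18 libraries with Lalba, r was 0.45 and rho 0.55. The gland list itself had 2 genes that rose with injury, Krt8 and Krt18, keratins of simple epithelium. The part of tissue with gland genes in the level of Sox10 was not tested.

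**Figure D4:**
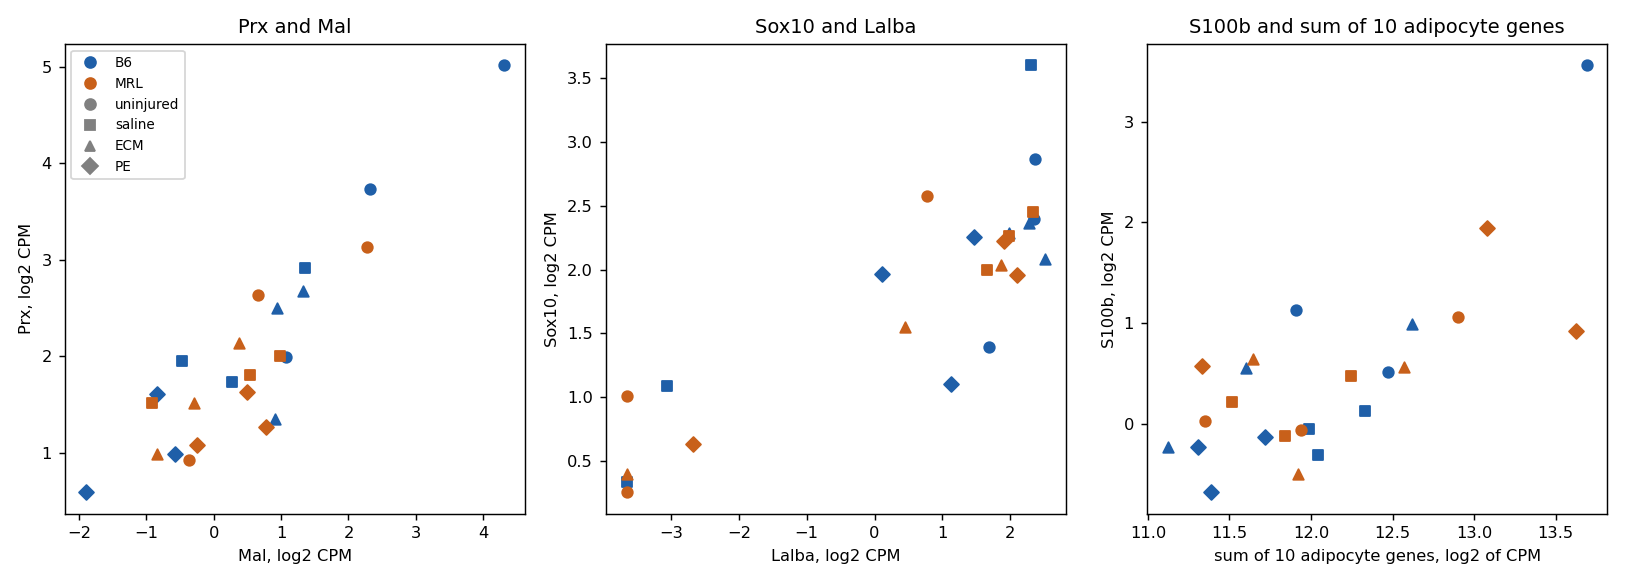
Levels in each of the 24 libraries (log2 CPM; colour is strain and symbol is treatment) of Prx against the sheath gene Mal, of Sox10 against the milk gene Lalba, and of S100b against the log2 sum of 10 adipocyte genes in CPM. Prx and Mal rise together up to uninjured B6 replicate 2, and the 6 libraries with Lalba under 3 counts hold the 6 lowest Sox10 values. Lalba was picked as one of the genes most like Sox10, so that panel is a description.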

How the data were processed

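Whole quadriceps RNA was sequenced as poly(A)-selected paired-end libraries. The deposited values are log2 CPM made by the authors: reads were pseudoaligned with kallisto to the mouse transcriptome (GRCm39), summed to genes with tximport (lengthScaledTPM), filtered to genes above 1 CPM in at least 3 libraries and TMM-normalized in edgeR with a prior count of 2. Counts per library were not given, so library sizes and count tests were not used here, and low genes have fold changes understated by the prior. The lowest value, shared by all libraries, is a count of 0, and the floor is 3 counts. Of 14160 rows, 1 has no symbol and was left out.

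All 28 tests used limma (3.58.1, R 4.3.3) with group means over all 24 libraries, trended empirical Bayes variances, 2-sided p-values and Benjamini-Hochberg adjustment over 14159 genes at 0.05. Intervals are 95% intervals of that model. Correlations of member pairs used 100000 permutations in R, adjusted over 21 pairs. Libraries were shuffled across groups and not within them. The correlations of Sox10 with Lalba within the 18 libraries used scipy (1.17.1). Figures were drawn with matplotlib 3.10.9. The steps were tested on simulated data. The members and gene lists were chosen with earlier results of these data known, and the gland list after its genes' values were seen. From each list, at most 5 genes called in a comparison were named by p-value, plus up to 3 genes most like each member, and 1 listed item is not reported here. The authors' methods describe 24 independent samples. Promoter motifs were searched in RefSeq windows (GRCm38.p6), placed on GRCm39 by exact match. Alternatives were another scale, a stricter filter, quantile or equal-total scaling, library weights, compared groups only, the replicate number as a block, the second sequencing index as a covariate, and each library left out.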

Additional observations from a re-analysis of the deposited data

How the results depend on the processing

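With 3 libraries per group, the member calls depended on single libraries and on weighting. Estimated library weights raised most counts of members called: 6 for PE in B6 (3 without weights), 5 for saline in B6, 3 for injury averaged over strains, 1 for PE in MRL, 2 each for MRL against B6 after saline, after PE and averaged over treatments, 1, 3 and 4 for ECM against saline, PE against saline and PE against ECM in B6, 2 each for PE against saline and PE against ECM in MRL, 3 and 2 for the same comparisons averaged over strains, 2 each for the strain differences in saline injury, PE injury and ECM against saline, 3 for that in PE against saline, 1 for that in PE against ECM, and 7 for any difference among the 8 groups. Weights also raised the calls over all genes, from 3508 to 9004 for PE in B6 and from 1361 to 4956 for injury. Fitting only the compared groups left 1 member for PE in B6. Equal library totals gave 0 for injury and 1 for PE against ECM averaged over strains. The second index gave 2 for injury, 1 each for PE against saline and PE against ECM, and 2 for any difference, and quantile scaling gave 2 for any difference. Requiring a mean log2 CPM of at least 1 left out Mag and S100b and gave 1 for PE against ECM. The causes were not tested.

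The replicate numbers did not pair the libraries: all 3 correlations of deviations passed 0.1 in 1 of 16 comparisons. With the replicate block, 0 members were called for injury and 1 for PE against ECM averaged over strains, and the calls over all genes for injury went from 1361 to 726. Leaving out each library in turn gave 0 to 4 members for PE in B6, 0 to 2 for injury, 0 to 2 for MRL against B6 uninjured, 0 to 3 for any difference, and 0 to 1 for MRL against B6 after saline, after PE and averaged over treatments, for PE against ECM in MRL and averaged, and for the strain difference in PE injury.

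The Sox10 change with injury (0.06) turned to -0.16 with quantile scaling, -0.10 with weights, -0.28 with the second index, and ran from -0.19 to 0.38 when libraries were left out. Its strain difference (-0.37) turned to 0.22 with weights. The S100b strain difference over the 4 treatments (0.04) turned to -0.025 on the log2(CPM + 1) scale and to -0.085 with equal totals, and ran from -0.11 to 0.27 when libraries were left out. Equal totals moved the median change of all genes by 0.41 for PE in B6, 0.40 for PE in MRL and 0.22 for injury. Of the member counts recomputed, 461 stayed within 1.5 times and 64 did not, and of the single values 843 kept their direction and call, 33 lost the call, 38 gained it and 16 reversed. Mag was under 3 counts in 1 library, the depth of each library is unknown, and a difference missed here may lie within the spread of 3 libraries.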
